A study of Homo sapiens with 6 samples.

Results

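The genes described here encode 9 proteins that degrade the extracellular matrix around a cell or hold that degradation in check: MMP1, MMP2 and MMP14, PLAU, PLAUR and PLAT, and TIMP1, TIMP2 and TIMP3. They were chosen by gene symbol, with earlier results of these data known, and each had 1 row among the 78932 genes of the deposited count table. RNA-seq was performed on T24 cells, a line established from a human urothelial carcinoma of the bladder, grown in medium with serum. Of the 6 cultures, 3 were transfected with a control siRNA that has no intended target (siNC) and 3 with siRNA against TRIM28 (siTRIM28), and all carry the label of batch 1. The comparison asks which of these genes changed when TRIM28, a chromatin-bound corepressor that also acts as a SUMO ligase, was silenced. All cultures come from this single cell line, every culture received an siRNA, and the labels do not say which TRIM28 siRNA was used. Loss of TRIM28 and effects of that siRNA on other transcripts therefore cannot be told apart.

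Matrix breakdown at the cell surface runs through enzymes that activate each other. Urokinase (PLAU) and tissue-type plasminogen activator (PLAT) cut plasminogen into plasmin, and the urokinase receptor (PLAUR) concentrates urokinase on the cell membrane. Matrix metalloproteinases (MMPs) are zinc enzymes made as inactive precursors, and tissue inhibitors of metalloproteinases (TIMPs) block their active sites. In bladder and other carcinomas these proteins are known mainly for their part in invasion. RNA levels do not show how much of an enzyme is active, since precursors must be cut and inhibitors bind after secretion.

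Total counts were 12989362 to 13942383 reads in siNC and 11712623 to 14018052 in siTRIM28. TRIM28 itself had 104 ± 4.09 CPM in siNC and 8.87 ± 0.658 in siTRIM28 (CPM, the reads of a gene relative to the TMM-scaled size of its library, mean ± SD, n = 3 each). Replicates were not equally close: siNC replicates 1 and 2 differed by 1.079 times the chi-square that sampling noise gives, and siTRIM28 replicates 2 and 3 by 1.238 times, against 4.595 to 6.988 for the pairs with siNC replicate 3 or siTRIM28 replicate 1. Nothing in the labels beyond the words biological replicate says how the cultures were separated, so p-values measure the spread between these libraries. The keratins KRT8 and KRT18 and the mesenchymal filament gene VIM were abundant, and KRT7 was low, with 37 to 58 counts per library. EPCAM, CDH1, KRT19 and KRT5 had at most 7 counts in any library, and only 1 of 6 urothelial markers, UPK1A, passed the count filter. Of the fibroblast markers 3 of 8 passed it (COL1A1, PDGFRA and THY1), and COL1A2 and LUM were at or near 0. The summed level of the 8 was 29.3 to 31.2 CPM in siNC and 31.4 to 35.5 in siTRIM28. Most of it came from THY1, with a mean of 27.5 CPM in siNC and 28.9 in siTRIM28. Of the leukocyte markers 1 of 8 passed it (CD68), with a summed level of 346 to 351 CPM in siNC and 338 to 362 in siTRIM28, almost all from CD68, and none of the 6 endothelial markers did.

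After TRIM28 silencing the proteolytic genes moved in different directions. MMP1 (collagenase) and PLAUR rose, MMP14, TIMP2 and PLAT fell, and PLAU, MMP2 and TIMP1 did not pass the test, while TIMP3 was too low to be tested. The largest changes were those of the low genes, a 2.84-fold rise of MMP1 and a 2.23-fold fall of PLAT, and the abundant genes PLAUR and MMP14 moved by 1.42-fold and 1.28-fold. The test was edgeR's quasi-likelihood test, applied to the 18474 genes that reached 10 counts in 3 or more libraries, and a gene was called when its Benjamini-Hochberg adjusted p was under 0.05. Of the 9 members 8 were tested and 5 were called, against 41.8% of all genes tested, a difference of few genes from which nothing is read about the members as a group. By direction, 2 members were higher, where 21.3% of all genes were, and 3 were lower, where 20.5% were. The groups did not overlap in 7 of the 8, against 52.0% of all genes tested. The median log2 fold change of the 8 was −0.16, beside 0.02 for all genes tested. Only MMP1 and PLAT also changed by at least 0.58 on the log2 scale, a size that 17.0% of all genes reached with an adjusted p under the threshold.

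**Figure D1:**
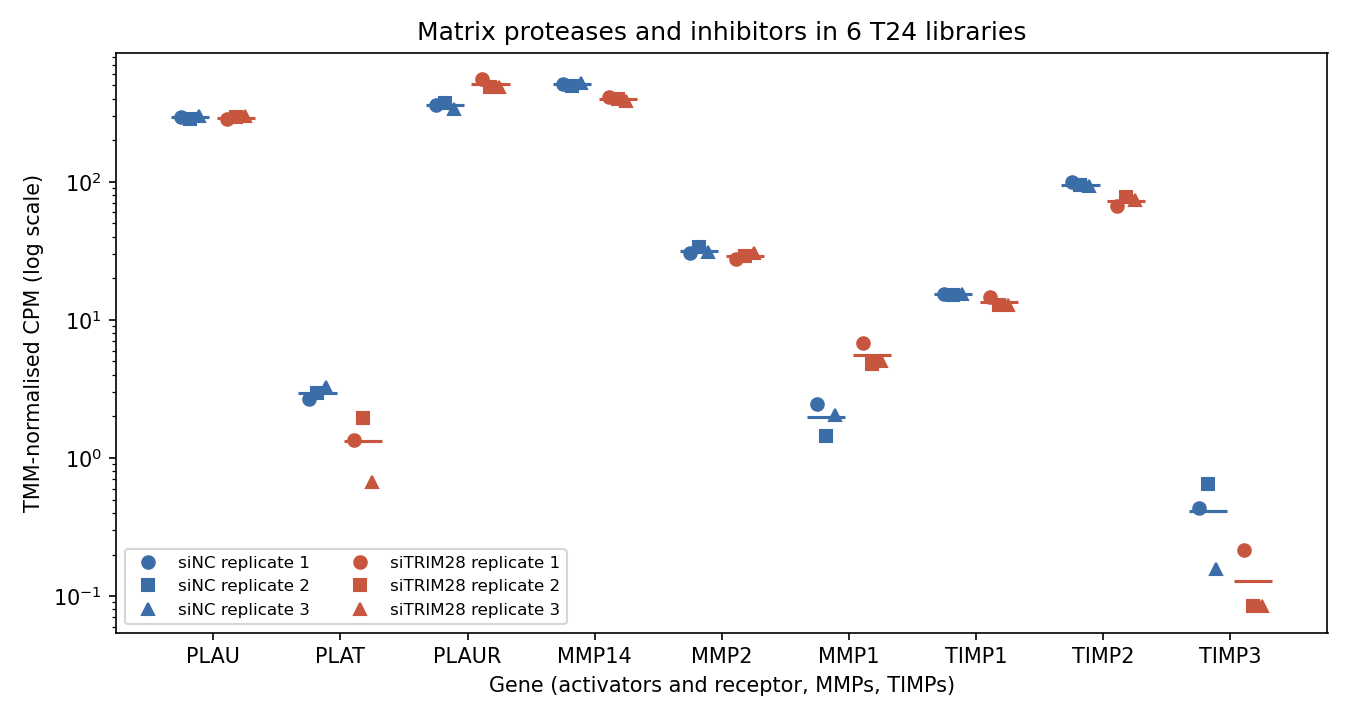
Level of each gene in the 6 T24 libraries, as TMM-normalised CPM on a log axis. Blue points are siNC and red points siTRIM28, the marker shape gives the replicate number and the horizontal line is the group mean. PLAU lies at 292 CPM in both groups, PLAUR and MMP1 are higher in siTRIM28, and MMP14, TIMP2 and PLAT are lower.

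Among the plasminogen activators, PLAU (ENSG00000122861, chromosome 10 of GRCh38, 73909177 to 73917496) was the abundant one. It had 292, 285 and 299 CPM in siNC replicates 1, 2 and 3 and 283, 292 and 301 in siTRIM28 replicates 1, 2 and 3. The groups overlapped completely, the log2 fold change was 0.00 (standard error 0.0411), and its 95% confidence interval ran from −0.09 to 0.09 (edgeR quasi-likelihood adjusted p = 0.995). PLAT (ENSG00000104368, chromosome 8, 42174718 to 42207565), the activator best known for dissolving fibrin, was barely expressed. It had 37, 41 and 42 reads in siNC and 19, 23 and 8 in siTRIM28, that is 2.97 ± 0.315 and 1.32 ± 0.634 CPM (mean ± SD, n = 3 each). Every siTRIM28 library was below every siNC library, and the spread in siTRIM28 was 47.9% of its mean. The log2 fold change of PLAT was −1.16 (standard error 0.284, edgeR quasi-likelihood adjusted p = 0.00641).

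PLAUR (ENSG00000011422, chromosome 19, 43646095 to 43670167), which holds urokinase at the membrane, had 360.5, 374 and 338 CPM in siNC and 551, 488 and 486 in siTRIM28. The groups did not overlap, and the lowest value of siNC and the highest of siTRIM28 came from the libraries that stand apart, siNC replicate 3 and siTRIM28 replicate 1. PLAUR rose by 0.51 on the log2 scale (standard error 0.0557, 95% confidence interval 0.39 to 0.63, edgeR quasi-likelihood adjusted p = 2.2e-05). With both of these libraries left out, a choice made after seeing the data, the log2 fold change was 0.41. The relation of PLAU to PLAUR within each library is given with the ratios.

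Promoter windows, from 250 bases before to 50 bases after an annotated start site, were taken from RefSeq (GRCh38.p14) and matched 5 of the 9 members: PLAU with 2 start sites, PLAUR, MMP14, TIMP1 and TIMP3. The window of PLAUR is shown because it is the only one of these 6 windows with a match to TGANTCA, the letters of the AP-1 motif bound by FOS and JUN proteins, and the window of MMP14 because this gene moved the other way. PLAUR is read on the minus strand, chr19:43670120-43670419, with the AP-1 match in capitals. MMP14 is read on the plus strand, chr14:22836335-22836634, with its match to the GC box GGGCGG in capitals.
PLAUR: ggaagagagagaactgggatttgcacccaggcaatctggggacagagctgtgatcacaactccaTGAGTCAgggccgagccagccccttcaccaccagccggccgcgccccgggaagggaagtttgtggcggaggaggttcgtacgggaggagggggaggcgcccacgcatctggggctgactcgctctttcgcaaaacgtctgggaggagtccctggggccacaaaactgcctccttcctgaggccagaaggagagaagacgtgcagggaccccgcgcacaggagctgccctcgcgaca
MMP14: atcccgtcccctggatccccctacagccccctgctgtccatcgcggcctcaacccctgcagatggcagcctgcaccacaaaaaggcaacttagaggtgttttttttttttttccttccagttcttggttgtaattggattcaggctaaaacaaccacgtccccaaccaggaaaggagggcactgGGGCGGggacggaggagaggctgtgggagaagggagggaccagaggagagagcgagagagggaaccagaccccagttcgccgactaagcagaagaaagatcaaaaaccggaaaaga

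The AP-1 letters of PLAUR, TGAGTCA, begin 186 bases before the start site. Searched on both strands, TGANTCA occurs in 7.71% of the 35116 promoter windows of the table, GGGCGG in 45.0% and the TATA box letters TATAAA in 11.5%, and matches that overlap were counted separately. The GC box occurs 1 time in the window of MMP14, 3 times in the downstream window of PLAU, 5 times in that of TIMP3 and 2 times in that of TIMP1, and TATAAA in none of the 6 windows. A match describes the letters only.

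MMP14 (ENSG00000157227, chromosome 14, 22836560 to 22849041) is a membrane-anchored metalloproteinase that cleaves collagen and activates the precursor of MMP2. It had 511, 496 and 520.0 CPM in siNC and 409, 398 and 385 in siTRIM28. The lowest siNC library was above the highest siTRIM28 library, with a spread of 2.36% and 2.93% of the mean inside the groups. MMP14 fell by 0.36 on the log2 scale (standard error 0.0390, 95% confidence interval −0.44 to −0.27, edgeR quasi-likelihood adjusted p = 2.17e-05). No other gene model of the count table overlaps it.

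MMP2 (ENSG00000087245, chromosome 16, 55389700 to 55506239), gelatinase A, degrades basement membrane collagen. It had 30.7, 33.4 and 30.9 CPM in siNC and 27.4, 29.1 and 30.6 in siTRIM28. The highest siTRIM28 library lay just under the lowest siNC library, and the log2 fold change of −0.13 did not pass the test (95% confidence interval −0.28 to 0.02, edgeR quasi-likelihood adjusted p = 0.157). MMP1 (ENSG00000196611, chromosome 11, 102789401 to 102798160), the collagenase that cuts fibrillar collagen, was low. It had 34, 20 and 26 reads in siNC and 96, 57 and 60 in siTRIM28, or 1.98 ± 0.504 and 5.58 ± 1.11 CPM (mean ± SD, n = 3 each). Every siTRIM28 library held more MMP1 reads than any siNC library. MMP1 rose by 1.50 on the log2 scale (standard error 0.221, 95% confidence interval 1.02 to 1.99, edgeR quasi-likelihood adjusted p = 0.000208). Its pattern over the 6 libraries was most like those of CARHSP1, SNX4 and USB1, with Pearson correlations of 0.997, 0.996 and 0.995 of log2 CPM among 11340 genes ranked, a description that rests mainly on the shared split into groups.

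The inhibitors were led by TIMP2 (ENSG00000035862, chromosome 17, 78852977 to 78925387), which blocks MMPs and also forms the complex in which MMP14 activates the MMP2 precursor. TIMP2 had 99.2, 94.0 and 92.8 CPM in siNC and 66.7, 77.7 and 73.3 in siTRIM28. The groups were well apart, and TIMP2 fell by 0.40 on the log2 scale (standard error 0.0613, 95% confidence interval −0.53 to −0.26, edgeR quasi-likelihood adjusted p = 0.000307). TIMP1 (ENSG00000102265, chromosome X, 47582408 to 47586789), a secreted inhibitor of most MMPs, had 15.3, 15.1 and 15.4 CPM in siNC and 14.6, 12.8 and 12.8 in siTRIM28. All siTRIM28 values were under those of siNC, but the log2 fold change of −0.18 missed the threshold (95% confidence interval −0.36 to −0.01 before adjustment, edgeR quasi-likelihood adjusted p = 0.0834). Without siTRIM28 replicate 1, the library nearest to siNC, it was −0.26 with an adjusted p of 0.026 in the same edgeR test. TIMP3 (ENSG00000100234, chromosome 22, 32801705 to 32863041), the inhibitor that stays bound to the matrix, had 6, 9 and 2 reads in siNC and 3, 1 and 1 in siTRIM28. These groups overlap and a difference was not detectable at this depth. Without the count filter the log2 fold change of TIMP3 was −1.60 (edgeR quasi-likelihood adjusted p = 0.119).

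The exact two-sided permutation test over the libraries gave p = 0.1, the smallest value that 3 against 3 libraries allow, for MMP1, MMP2, MMP14, PLAUR, PLAT, TIMP1 and TIMP2, p = 0.2 for TIMP3 and p = 0.9 for PLAU. This test cannot reach 0.05 in this design.

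Levels of different genes were compared after division by the length of each gene model, as CPM per kilobase. In siNC the order was MMP14 (110 ± 2.60), PLAU (99.0 ± 2.40), PLAUR (80.2 ± 4.09), TIMP2 (15.4 ± 0.546), TIMP1 (10.6 ± 0.124), MMP2 (6.73 ± 0.327), MMP1 (0.722 ± 0.184), PLAT (0.383 ± 0.0405) and TIMP3 (0.0898 ± 0.0538), each as mean ± SD of 3 libraries. MMP14, PLAU and PLAUR stood above 97.7%, 97.5% and 96.9% of all tested genes on this scale, and MMP1 and PLAT above 20.1% and 10.9%. In siTRIM28 PLAUR led at 114 ± 8.36, followed by PLAU at 99.0 ± 3.18 and MMP14 at 86.0 ± 2.52, and the order of the other 6 was as in siNC. In neither group did neighbours in the order overlap between libraries, although a length in the count table that exceeds the main transcript would lower a value.

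Ratios inside a library depend on the scaling only through the prior count of 2 added to each gene, which weighs most on low genes. In this way 6 pairs were read, 5 of a protease with its inhibitor, receptor or partner and 1 of TIMP3 with TIMP2. MMP14 and TIMP2 fell together: their log2 ratio was 2.36, 2.40 and 2.48 in siNC and 2.61, 2.36 and 2.39 in siTRIM28, a difference of 0.04 (exact two-sided permutation p = 0.9). The ratio of MMP2 to TIMP2 was −1.69, −1.49 and −1.58 in siNC and −1.28, −1.41 and −1.26 in siTRIM28, and the groups did not overlap, with a difference of 0.27. For MMP1 to TIMP1 the difference was 1.63, from −2.89 ± 0.344 to −1.26 ± 0.158 (mean ± SD, n = 3 each). The log2 ratio of PLAU to its receptor PLAUR was −0.29 ± 0.109 in siNC and −0.80 ± 0.146 in siTRIM28. The ratios of MMP2 to TIMP2, MMP1 to TIMP1 and PLAU to PLAUR did not overlap between groups and each reached p = 0.1, the smallest possible in the exact permutation test, or 0.2 after Benjamini-Hochberg adjustment over the 6 ratios. MMP14 to MMP2 differed by −0.23 and TIMP3 to TIMP2 by −0.54, both with overlapping groups (exact permutation p = 0.2, adjusted 0.24). TIMP3 had 1 to 9 reads per library, so the prior count also draws the second value toward 0. The few reads left it loose: it was −0.23 without siNC replicate 2, −0.90 without siNC replicate 3 and −1.17 without both libraries that stand apart.

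Several members share their place in the genome with a gene model on the opposite strand, and the sources used here do not state whether reads were counted by strand. ENSG00000308028, which spans PLAUR, had 4229, 4397 and 3573 reads in siNC and 6682, 4800 and 4840 in siTRIM28. That is 83.0% to 86.5% of the PLAUR reads of the same library in all 6 libraries, and its log2 fold change of 0.52 lies beside the 0.51 of PLAUR. WTAPP1, which spans MMP1, had 26, 14 and 13 reads in siNC and 73, 39 and 44 in siTRIM28, up to 76.5% of the MMP1 reads of a library, with a log2 fold change of 1.65. Without strand, reads of MMP1 or PLAUR and of these partners cannot be told apart, and the part of the partners in both rises was not tested. C10orf55 opposite PLAU had 15.2% to 24.4% of the PLAU reads and a log2 fold change of 0.36 (edgeR quasi-likelihood adjusted p = 0.00214), beside 0.00 for PLAU. Exon overlap was read from the GENCODE v29 annotation of the same genome build. There, exons on the opposite strand cover 7.61% of the exonic bases of MMP1, 31.1% of those of PLAU and 6.52% of those of TIMP2. They cover none of those of MMP14, PLAUR, PLAT, MMP2, TIMP1 and TIMP3. That release differs from the annotation of the counts: MMP1 has 1970 exonic bases in it and 2738 bases in the count table. Whether it holds the partners of PLAUR and PLAT was not checked, so the absence of overlap for these genes need not cover those partners. ENSG00000304994 opposite PLAT had 14, 15 and 14 reads in siNC and 16, 5 and 5 in siTRIM28, which is 33.3% to 37.8% of the PLAT reads in siNC and 84.2%, 21.7% and 62.5% in siTRIM28 replicates 1, 2 and 3. Its part in the fall of PLAT was not tested either. Other genes named here, among them LRP1, MMP9, MMP21 and MMP24, also overlap opposite-strand gene models with reads, and the part of these was not tested.

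Of 14 other genes of the plasminogen system 7 were tested, and 3 rose, 1 fell and 3 did not pass the test. The share called was 57.1%, beside 41.8% of all genes tested, and with so few genes nothing is read about the list. LRP1, which takes up protease complexes from the cell surface, rose from 32.1 ± 2.20 to 51.6 ± 3.44 CPM (mean ± SD, n = 3 each). SORL1, another receptor that takes up these ligands, rose from 39.7 ± 2.10 to 53.5 ± 1.57. Among surface proteins that bind plasminogen, ANXA2 fell from 1584, 1589 and 1588 CPM in siNC to 649, 685 and 667 in siTRIM28, so that its log2 change was −1.25 (edgeR quasi-likelihood adjusted p = 6.08e-10). Its partner S100A10 did not pass the test, with 0.12 on the log2 scale (edgeR quasi-likelihood adjusted p = 0.0568), nor did PLGRKT with −0.03. S100A10 was called with upper-quartile factors (edgeR adjusted p = 0.0185), total counts (0.0335), at least 10 counts in every library (0.0464) and limma-voom (0.0495). ENO1, a glycolytic enzyme that also binds plasminogen at the surface, rose by 0.24. SERPINE2, an inhibitor of PLAU and thrombin, had 8 to 33 reads per library and a log2 fold change of −0.89 (edgeR quasi-likelihood adjusted p = 0.0566). It was −0.51 without siNC replicate 2, and SERPINE2 was called without siNC replicate 1 (edgeR adjusted p = 0.0338), without both libraries that stand apart (0.0446) and without the count filter (0.0310). Plasminogen itself, PLG, had at most 2 reads in any library, and 6 further genes of the list were also too low to test.

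Of the 20 other MMP genes 7 were tested, and 13 had at most 11 reads in any library. Of those tested 14.3% were called, where 41.8% of all genes tested were. MMP16, another membrane-anchored enzyme, fell from 22.5 ± 0.138 to 17.1 ± 0.232 CPM (mean ± SD, n = 3 each), or by 0.40 on the log2 scale (edgeR quasi-likelihood adjusted p = 0.000336). The others did not pass the test. MMP9, or gelatinase B, had 5.51 ± 0.334 and 5.36 ± 0.763 CPM, and the log2 fold changes of MMP15, MMP19, MMP21, MMP24 and MMP25 lay between −0.14 and 0.25. The upper value is that of MMP21, which was 0.05 without siTRIM28 replicate 2, 0.12 without siNC replicate 3, 0.16 without siNC replicate 1, 0.42 without siTRIM28 replicate 1 and 0.49 without siNC replicate 2. That of MMP15 was 0.02 without siNC replicate 3 and 0.36 without siNC replicate 2. Among 13 further inhibitors and activators of metalloproteinases 6 were tested, 1 rose and 2 fell. RECK, a membrane-anchored MMP inhibitor, had 11.4, 11.3 and 12.3 CPM in siNC and 19.0, 15.5 and 18.0 in siTRIM28, a rise of 0.59 on the log2 scale. BSG, which induces MMP synthesis in neighbouring cells, fell from 289 ± 10.2 to 203 ± 9.76 CPM, that is by 0.51 on the log2 scale.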

How the data were processed

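RNA was poly(A)-selected and built into stranded libraries, per the labels. The authors deposited raw read counts per gene for 6 libraries, without normalization. The submitters' processing notes name fastp 0.23.1, STAR 2.7.6a, featureCounts and GRCh38, without roles. The annotation release, strand setting and treatment of duplicates are not given in the sources used here, so reads of overlapping genes could be lost or counted on either gene. The authors also deposited RPKM values of the genes from their own comparison, which were not used. Gene length is the value in the deposited count table, per the file headers.

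Counts were filtered (at least 10 in at least 3 libraries), normalised with TMM factors, and siTRIM28 was compared with siNC by the quasi-likelihood test of edgeR 4.0.16 (R 4.3.3), with group as the only term. P-values were adjusted over all 18474 genes tested. Each standard error is the absolute log2 fold change over the root of its F statistic, and intervals use the fit's degrees of freedom. Ratios used log2 CPM with a prior count of 2. Alternatives were other scalings (RLE, upper quartile, total counts), DESeq2 1.42.0, limma-voom (limma 3.58.1), other filters and thresholds, a replicate block, close pairs summed, and libraries left out. The pipeline was tested on simulated data. Figures used Python 3.11.15 and matplotlib 3.10.9.

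The members and gene lists were chosen with earlier results of these data known. Named genes are TRIM28, the members, all tested genes of the plasminogen and MMP lists, and the 3 genes most like the member with the largest change. From each other list came the 2 largest called changes at a mean of at least 50 counts. Those lists are inhibitors and activators, ADAM and ADAMTS, cathepsins and cystatins, surface serine proteases, matrix substrates, transcription factors and cell type markers. The surface serine protease list also holds BMP1, a metalloproteinase. Marker genes with their counts, opposite-strand partners, PLG and any other gene were named after their values were seen. Results that need a withheld gene are not reported here, and the list counts and ratio adjustments are without it.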

Additional observations from a re-analysis of the deposited data

How the results depend on the processing

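The replicate numbers were not taken to pair the libraries. Same-numbered siNC and siTRIM28 libraries had correlations of 0.052, -0.012 and 0.037 of their deviations from the group means. With 3 libraries per group such values cannot exclude a pairing. The replicate block left 5 members called, and 7910 of all genes tested. MMP1, MMP14, PLAUR, PLAT and TIMP2 were called in the same direction under each scaling, tool, filter and left-out library tried, except that PLAT could not be tested with at least 10 counts in every library, which left 4 members called. Among all genes tested, 7330 were called with that filter, against 7723 in the main fit. Leaving out each library in turn gave 5 to 6 members called (TIMP1 was added without siTRIM28 replicate 1), and 5 were called without both libraries that stand apart. Calls among all genes ranged from 6367 to 8252 with each library left out, and were 8099 without both libraries that stand apart. The highest number, 8252, also came without siTRIM28 replicate 1. When a change of 0.58 or more on the log2 scale was also required, which MMP14, PLAUR and TIMP2 do not reach, 3144 genes, 2 members, 0 other MMPs, 2 other plasminogen genes, 1 further inhibitor or activator, 2 ADAM genes, 1 cathepsin, 0 surface serine proteases, 4 matrix substrates and 8 transcription factors were called. DESeq2 called 3 cathepsins and cystatins and 0 surface serine proteases, and an adjusted p under 0.01 gave 0 surface serine proteases and 5 matrix substrates. These 2 settings also called fewer genes in all, 5878 with DESeq2 and 5393 with the stricter threshold. With each library left out, 0 to 1 genes of the surface serine protease list were called, and 5 to 8 matrix substrates. The log2 fold change of PLAU, near 0, turned positive with upper-quartile factors (0.0338), total counts (0.0190), at least 10 counts in every library (0.000564) and without both libraries that stand apart (0.0400), and ranged from −0.0351 to 0.0228 with each library left out. That of PLGRKT became 0.00945 with close pairs summed and ranged from −0.15 to 0.05 with each library left out, where MMP9 ranged from −0.157 to 0.0493 and MMP25 from −0.173 to 0.0332. The ratio of MMP14 to TIMP2 ranged from −0.0410 to 0.0877 with each library left out and was −0.00628 without both libraries that stand apart. The cause was not tested. Upper-quartile factors gave 56.6% of all calls as higher, against 51.1% with TMM. Low depth limits MMP1, PLAT and TIMP3 most.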

Other observations

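Among the ADAM and ADAMTS proteases 15 of 28 genes were tested, with 4 higher and 1 lower in siTRIM28. The share called was 33.3%, beside 41.8% of all genes tested. ADAM19 rose from 60.8 ± 2.39 to 112 ± 3.75 CPM (mean ± SD, n = 3 each), by 0.88 on the log2 scale, and ADAM12, another membrane-anchored metalloprotease, by 0.60. Of 22 cathepsins and cystatins 11 were tested, 1 rose and 4 fell, a share of 45.5% called. CTSB is a lysosomal cysteine protease that can also be secreted. It fell from 656 ± 8.17 to 386 ± 6.16 CPM, by 0.76 on the log2 scale. CTSD fell by 0.39. It overlaps ENSG00000250644 on the same strand, which had 68.0% to 75.3% of the CTSD reads and a log2 fold change of −0.41. The part of that gene model in the fall of CTSD was not tested. Of 18 surface serine proteases and their inhibitors 5 were tested and 1 rose, BMP1, which processes procollagen, by 0.27 on the log2 scale (edgeR quasi-likelihood adjusted p = 0.0326). The call of BMP1 was lost with DESeq2 (adjusted p = 0.118), without siNC replicate 2 (edgeR adjusted p = 0.159), without siNC replicate 3 (0.121) and without both libraries that stand apart (0.164).

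Of 16 genes for proteins on which these enzymes act 14 were tested, and 8 rose and 1 fell. The share called was 64.3%, beside 41.8% of all genes tested, and nothing is read about the list as a group. LAMB3, a chain of the laminin of epithelial basement membranes, rose from 56.8 ± 0.320 to 98.9 ± 7.66 CPM (mean ± SD, n = 3 each), and AGRN, a heparan sulfate proteoglycan, from 63.5 ± 0.875 to 89.0 ± 3.02. Without siNC replicate 2, 5 of the 14 substrate genes and 6394 of all genes tested were called. Of 20 transcription factors known to act on protease promoters all were tested, and 9 rose and 4 fell, a share of 65.0% called. EGR1 rose from 6.98 ± 0.440 to 17.3 ± 1.56 CPM and FOSL1, an AP-1 subunit, from 186 ± 5.56 to 449 ± 30.7, log2 fold changes of 1.31 and 1.28. The AP-1 subunits did not move one way. FOS, FOSB, JUN and JUNB also rose, by 1.21, 1.28, 0.31 and 0.89 on the log2 scale (edgeR adjusted p = 3.13e-05, 0.0119, 7.97e-05 and 4.04e-06). FOSB had only 6, 8 and 3 reads in siNC and 14, 12 and 13 in siTRIM28, and passed the count filter only through siTRIM28. In contrast, FOSL2 fell from 145 ± 3.44 to 81.5 ± 5.30 CPM and JUND from 24.6 ± 1.37 to 15.2 ± 2.57. Their log2 changes were −0.83 and −0.69 (edgeR adjusted p = 3.58e-07 and 0.000256). These 6 were named after their values were seen. No link between these factors and the proteases was tested.

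VIM and KRT8 were the carcinoma markers with the largest called changes at the stated count minimum, with log2 fold changes of 0.33 and 0.14. Below that minimum, KRT7 had 37, 41 and 37 reads in siNC and 58, 49 and 51 in siTRIM28. Its rise was larger, 0.56 on the log2 scale (edgeR quasi-likelihood adjusted p = 0.0126). KRT8 was not past the threshold with DESeq2 (adjusted p = 0.146) or with any library but siTRIM28 replicate 2 left out (edgeR adjusted p = 0.0598 to 0.129). UPK1A rose from at most 17 reads per library in siNC to between 34 and 58 in siTRIM28, and COL1A1 from at most 17 to between 36 and 45, and the part of either in the protease results was not tested.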
